A study of Mus musculus with 10 samples.

Results

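Developmental patterning transcription factors outside the Hox clusters were followed in cultures of mouse cerebellar granule cell precursors with and without Bmi1. The 43 genes were chosen as homeodomain, Pax, Dmrt, Onecut and GATA factors that are classical Polycomb targets, out of 18193 genes named on the array, and they are read by 65 probe sets. All 43 were found and no filter on signal was applied. The cultures were wild type or Bmi1 knockout, from pups labelled as postnatal days 5 to 7 (day 7 in the text of the design), grown for 24 hours in serum-containing medium with raised potassium. There were 3 untreated arrays per genotype (replicates 1, 3 and 5 wild type, 2, 4 and 6 knockout) and 2 arrays per genotype from cultures given sonic hedgehog (Shh) for 24 hours (7 and 9 wild type, 8 and 10 knockout), at a concentration labelled as 3 mg/ml. For wild type replicate 3, the note on treatment names Shh where applicable, but the title and other labels make it an untreated culture. The labels call the cultures biological replicates and do not give the number of animals in each, so p-values measure the spread between these arrays. The sources used here do not say which part of Bmi1 was deleted, and its probe sets therefore do not check the genotype.

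Polycomb repressive complexes keep developmental regulators silent in cells of the wrong lineage or position. Bmi1 is a subunit of Polycomb repressive complex PRC1, and genes that specify position and cell fate, many with CG-rich promoters, are its best known class of targets. In the cerebellum, granule cell precursors divide in response to Shh made by Purkinje cells. They carry some patterning factors of their own region, such as the Engrailed proteins, while factors of the forebrain, the ventral neural tube or other organs are not part of their normal program.

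The upstream promoter sequences of the members that differed by genotype are shown because they are the stretches on which CG content, the base composition typical of Polycomb targets, can be seen. Each is the 250 bases before the annotated start, read on the gene's strand from RefSeq (GRCm38.p6), with the letters CG in capitals. Emx1, a dorsal forebrain factor that did not differ, is shown beside them.
Lhx2: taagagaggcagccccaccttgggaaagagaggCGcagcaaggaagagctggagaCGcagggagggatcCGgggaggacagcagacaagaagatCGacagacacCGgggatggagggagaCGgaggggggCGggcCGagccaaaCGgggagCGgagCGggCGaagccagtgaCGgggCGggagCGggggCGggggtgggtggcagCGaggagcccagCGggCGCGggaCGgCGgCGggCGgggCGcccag
Dmrta2: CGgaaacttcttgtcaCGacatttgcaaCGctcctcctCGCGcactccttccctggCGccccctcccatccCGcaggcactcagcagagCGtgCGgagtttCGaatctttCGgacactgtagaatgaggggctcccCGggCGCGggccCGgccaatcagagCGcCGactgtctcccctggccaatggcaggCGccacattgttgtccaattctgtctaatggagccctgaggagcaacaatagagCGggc
Dlx2: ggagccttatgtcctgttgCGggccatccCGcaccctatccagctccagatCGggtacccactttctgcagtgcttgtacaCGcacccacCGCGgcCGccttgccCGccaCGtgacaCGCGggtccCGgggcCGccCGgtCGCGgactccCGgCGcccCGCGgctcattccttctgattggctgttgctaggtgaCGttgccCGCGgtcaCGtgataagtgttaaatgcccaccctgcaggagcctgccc
Nkx2-2: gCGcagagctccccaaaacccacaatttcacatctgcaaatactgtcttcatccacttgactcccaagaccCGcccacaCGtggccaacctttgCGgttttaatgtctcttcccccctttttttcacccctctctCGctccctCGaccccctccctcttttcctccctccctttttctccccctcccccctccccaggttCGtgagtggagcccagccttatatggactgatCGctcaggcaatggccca
Emx1: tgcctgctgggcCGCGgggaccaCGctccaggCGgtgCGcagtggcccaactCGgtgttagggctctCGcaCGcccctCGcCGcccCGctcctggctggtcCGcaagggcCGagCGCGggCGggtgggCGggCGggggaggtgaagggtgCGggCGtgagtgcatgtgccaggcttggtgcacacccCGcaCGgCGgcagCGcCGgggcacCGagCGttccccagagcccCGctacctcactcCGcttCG
They lie at chr2:38339031-38339280 on the plus strand, chr4:109977775-109978024 on the plus strand, chr2:71546755-71547004 on the minus strand, chr2:147186403-147186652 on the minus strand and chr6:85187681-85187930 on the plus strand. They hold 25, 19, 24, 8 and 30 CG pairs, in that order. The letters CG read the same on both strands. RefSeq windows were matched for 33 of the 43 members, and Onecut2 is among those without one. Over the whole window of 300 bases around the start, 93.94% of the 33 members had 12 or more CG pairs (median 23), against 65.7% of 14452 genes on the array with a window (median 18) and 78.57% of 70 further patterning factors (median 18). Over the members the window held from 6 CG pairs (Lhx9) to 40 (Nkx6-1). Of those that passed by genotype, Lhx2 held 34, Dlx2 29, Dmrta2 26 and Nkx2-2 17, and among those that did not pass were windows with more (Emx1 with 37) and with fewer (Pax8 with 7). These counts describe the sequence and are no measure of Polycomb binding.

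Signal is the array's summarised brightness of a probe set on a linear scale. Values below 20.9, the 25th percentile of all values, were raised to it, and this level is called the floor. Where a gene has several probe sets, the one with the highest mean was used. A gene is said to have passed where limma's adjusted p over 17515 genes was under 0.05. Untreated arrays had median signals of 84.8 to 91.2 over all probe sets, and Shh arrays 66.8 to 72.3. An 18S ribosomal control read 6301 on knockout replicate 6 and 2030 on wild type replicate 1, against 219 to 649 elsewhere. Markers of the granule lineage, 9 on the array and none at the floor, summed to 43121 to 54279 on untreated wild type, 43394 to 46370 on untreated knockout, 44825 to 46009 on Shh wild type and 42498 to 44677 on Shh knockout arrays. The brighter of the 2 Bmi1 probe sets read 3673 to 4253 in untreated wild type and 3416 to 3904 in untreated knockout cultures.

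Most of the 43 factors gave little signal in these cultures. Nkx6-1, a factor of ventral progenitors, lay at the floor on all 10 arrays, which left 42 members in the tests. A further 22 were above the floor on 1 to 9 arrays, and 20 were above it on all 10. The forebrain and ventral factors Dlx1, Dlx5, Emx2 and Onecut3 were each above it on 1 array. Those above it on every array included En1, En2, Lhx1 and Lhx5, factors of the hindbrain and cerebellar primordium. The others were Otx1, Otx2, the 4 Iroquois genes, Pax3, Tlx3, Dmrta1, Gata2, Six3 and Lhx9, besides Lhx2, Dmrta2, Onecut2 and Nkx2-2. Since whole cultures were measured, fewer cells of a type and less RNA per cell cannot be told apart in any result here.

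The genotype comparison asked which of these factors differed when Bmi1 was missing. Averaged over both conditions, 5 of the 42 members were higher in knockout cultures and 0 were lower. They were Lhx2, Dmrta2, Onecut2, Dlx2 and Nkx2-2. That is 11.9% of members, where 1.06% of all genes tested passed. Without Shh 3 members passed (Lhx2, Dmrta2 and Onecut2, 7.14%, against 0.331% of all genes), and with Shh 2 passed (Onecut2 and Nkx2-2, 4.76% against 0.451%). The median difference over the members was small, at a log2 of 0.08 averaged over both conditions against 0.01 for all genes, so the bulk of the group stayed near 0. Earlier results of these data were known when the members were chosen, and these shares are a description. Left without wild type replicate 7 or 9, 3 members passed over both conditions. Without replicate 7, which left 1 wild type array with Shh, 222 genes passed by genotype with Shh (60 higher, 162 lower), against 79 (65 higher, 14 lower) with all arrays, and 1 member did. With Shh, leaving out replicate 2 or 8 also left 1 member, and leaving out replicate 9 or 10 left 0. Without both arrays with a high 18S signal, 3 passed over both conditions and 1 without Shh.

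**Figure D1:**
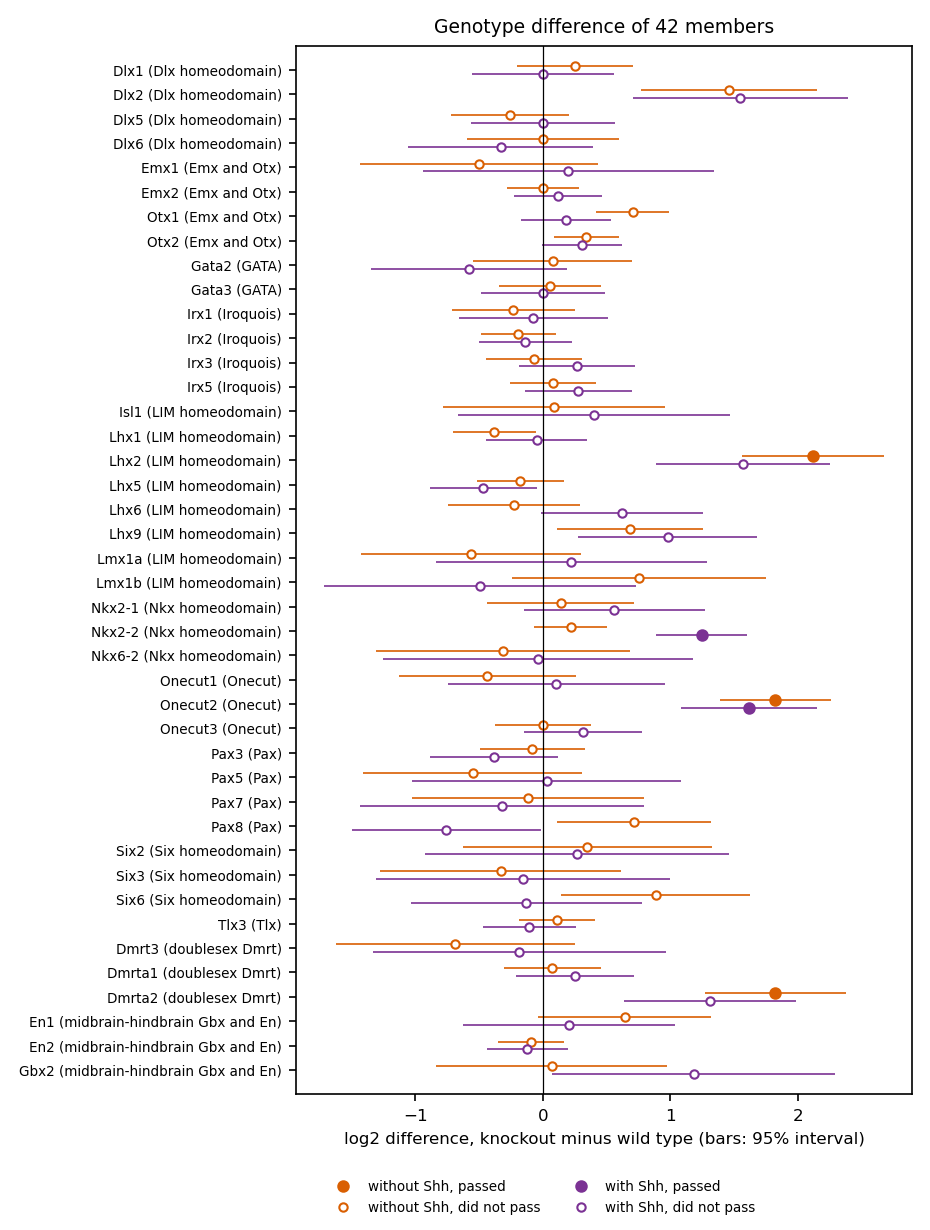
Log2 difference between knockout and wild type for each of the 42 tested members, without Shh (orange) and with Shh (purple), with 95% intervals from limma and filled points for members that passed. The filled points are Lhx2, Dmrta2 and Onecut2 without Shh and Onecut2 and Nkx2-2 with Shh, all to the right of 0, while most other members lie within 1 log2 unit of 0.

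Among the 8 LIM homeodomain factors, Lhx2, a selector of cortical and eye identity, was higher in the knockout. Its signal was 116, 86.5 and 55.4 on the untreated wild type arrays and 351, 359.6 and 358 on the untreated knockout arrays. With Shh it was 149 and 169 in wild type and 437 and 506 in knockout. The genotypes did not overlap in either condition, and the lowest values were those of untreated wild type cultures. Without Shh the knockout was 4.34-fold higher (95% interval 2.95 to 6.38, log2 2.12, SE 0.25, adjusted p = 0.00543). With Shh it was 2.96-fold higher (1.85 to 4.75), which did not pass (adjusted p = 0.0734). Over the alternatives other than leaving out 1 array at a time, limma's adjusted p ran from 0.0165 to 0.139. Leaving out 1 array at a time, the log2 difference ran from 1.46 to 1.67. Averaged over both conditions the knockout was 3.58-fold higher (2.64 to 4.86, adjusted p = 0.00175). Lhx2 also rose with Shh in wild type cultures, by 1.94-fold (adjusted p = 0.0338), a call that did not hold with the wild type arrays alone in the fit or when any of replicates 3, 4, 5, 7, 8, 9 and 10 was left out (adjusted p up to 0.183).

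Lhx9, a LIM factor of dorsal interneurons and the gonad, gave different pictures by probe set with Shh. On the probe set used, the signal was 36.9, 61.4 and 42.7 in untreated wild type and 90.6, 65.2 and 67.5 in untreated knockout cultures, and 30.1 and 27.3 against 52.3 and 60.8 with Shh. The genotypes did not overlap, but the difference did not pass in either condition (log2 0.68 and 0.98, adjusted p = 0.542 and 0.338). A second probe set read 28.6 and 38.1 in wild type and 23.7 and 29.2 in knockout with Shh, the opposite order with overlap. Its direction between genotypes with Shh thus differed between probe sets.

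Isl1, a factor of motor neurons and other differentiating neurons, was close to the floor. By its brighter probe set the values overlapped between genotypes in both conditions, at 29.0, 4.49 and 4.99 against 24.2, 30.0 and 21.0 without Shh. By its other probe set the wild type arrays all lay below the floor, at 10.5, 1.47 and 1.29 untreated and 2.72 and 3.81 with Shh. The same probe set read 36.2, 31.5 and 37.4 on the untreated knockout arrays, at least 1.67-fold higher, and 34.7 and 20.5 on the Shh knockout arrays. The difference did not pass over all probe sets (adjusted p = 0.322 without Shh and 0.210 over both conditions). The other LIM members on the array, Lhx1, Lhx5, Lhx6, Lmx1a and Lmx1b, did not pass by genotype, with log2 differences of -0.56 to 0.75 without Shh and -0.49 to 0.62 with it.

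In the doublesex-related family the 3 members differed from each other. Dmrta2, a regulator of dorsal forebrain patterning, read 73.9, 77.5 and 51.3 in untreated wild type and 181, 262 and 274 in untreated knockout cultures. With Shh it read 109.7 and 101 in wild type and 242 and 282 in knockout. Each knockout value lay above each wild type value. The knockout was 3.54-fold higher without Shh (2.42 to 5.18, log2 1.82, SE 0.25, adjusted p = 0.0145). That call was lost with consecutive replicates as pairs (adjusted p = 0.0649), with only the untreated arrays in the fit (0.0699), without both arrays with a high 18S signal (0.170), and without any of replicates 4, 5, 6, 7 and 8 (up to 0.0770). With Shh the fold was 2.47 (1.55 to 3.95, adjusted p = 0.129), and over both conditions 2.96 (2.19 to 4.00, adjusted p = 0.00477), which passed under all alternatives run.

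Its relative Dmrta1 did not differ by genotype without Shh. It read 369, 426 and 422 in untreated wild type and 336, 529.9 and 434 in untreated knockout cultures, which overlap (log2 0.07, SE 0.17, adjusted p = 0.986). With Shh it read 203 and 195 in wild type and 245 and 229 in knockout, without overlap, and did not pass by genotype. In the RefSeq gene order of chromosome 4, Dmrta1 is the next protein-coding gene to Cdkn2b and is 1 gene away from Cdkn2a, the best known target of Bmi1. Cdkn2a was 7.92-fold higher in untreated knockout cultures (adjusted p = 0.000485). Cdkn2b was 5.67-fold higher there, without overlap, and did not pass (adjusted p = 0.154). Dmrt3, a spinal interneuron factor, lay near the floor and did not pass in any of the 6 comparisons.

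Onecut2, a factor of liver, pancreas, retina and motor neurons, was the member with the smallest genotype p without Shh and over both conditions. On the probe set used, it read 118, 124 and 145 in untreated wild type and 432, 373 and 582 in untreated knockout cultures. With Shh it read 109.55 and 132 in wild type and 369 and 369.8 in knockout. No array of one genotype overlapped the other. The knockout was 3.54-fold higher without Shh (2.61 to 4.78, log2 1.82, SE 0.19, adjusted p = 0.00291) and 3.07-fold higher with it (2.12 to 4.44, adjusted p = 0.0269). Without both arrays with a high 18S signal, the first of these had an adjusted p of 0.0525. With Shh, the call was lost when the fit held the Shh arrays alone (adjusted p = 0.118), and when any of replicates 2, 7, 8, 9 and 10 was left out (adjusted p up to 0.127).

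Both other probe sets of Onecut2 gave the same order. One read 90.5, 97.5 and 100.03 against 293, 305 and 315 without Shh, and 64.6 and 91.0 against 301 and 285 with it. The other read 52.6, 88.6 and 59.9 against 244, 305 and 273 without Shh, and 70.6 and 90.7 against 189 and 220.4 with it. Tested over all 33366 probe sets with 1 gene symbol, all 3 passed without Shh (adjusted p = 0.00533, 0.00699 and 0.0114), where 0.192% of probe sets passed. All 3 also passed over both conditions, where 0.518% did, and with Shh 2 of 3 passed, where 0.252% did (the third had an adjusted p of 0.176). Probe sets of 1 gene on the same arrays are not replicates of the cultures. Onecut1 and Onecut3, which share its DNA-binding domains, were at or near the floor and did not pass.

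**Figure D2:**
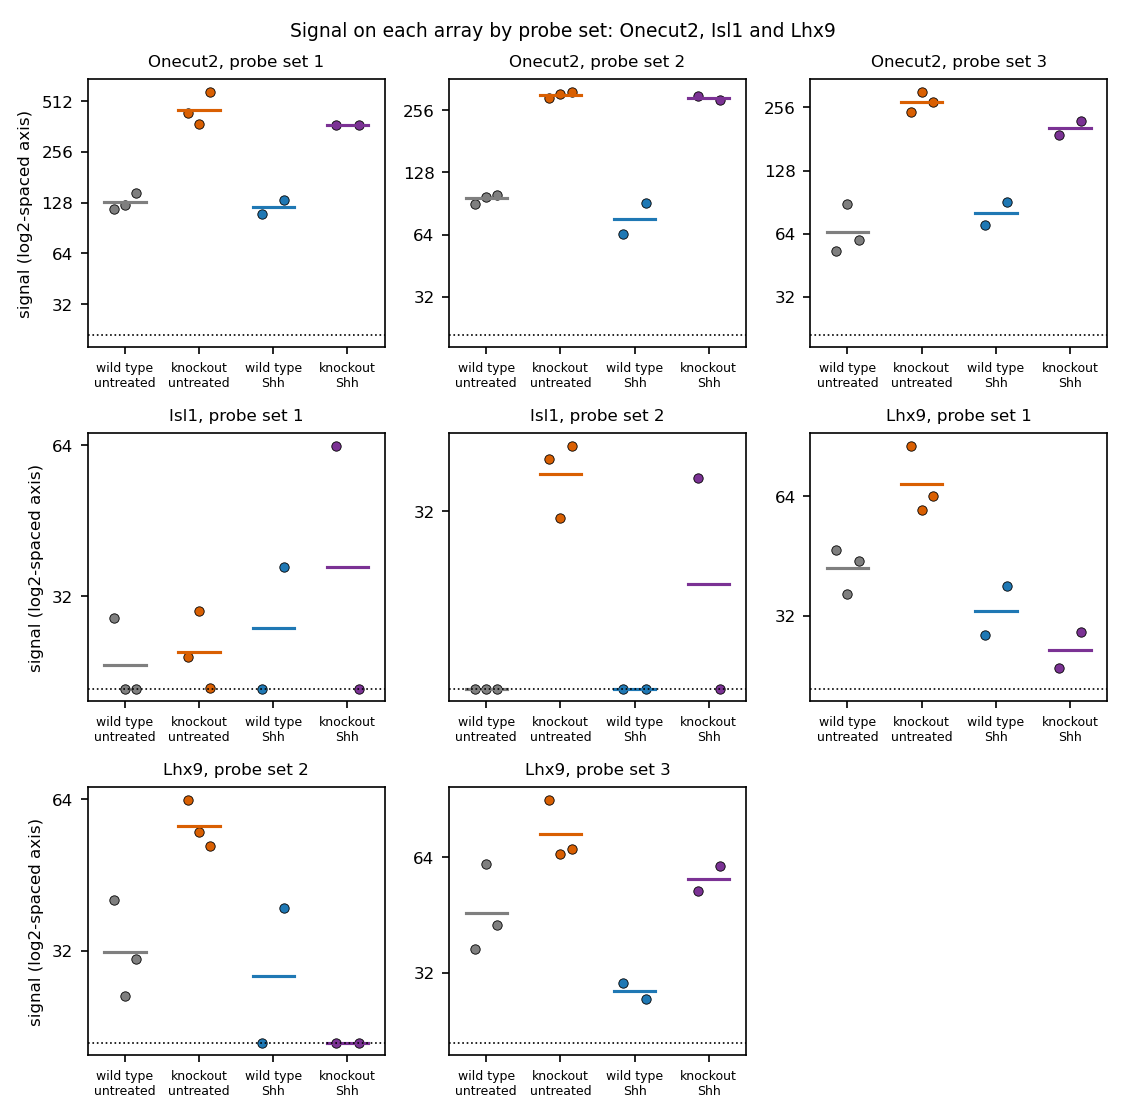
Signal on each array (points, log2-spaced axis), with the mean of log2 signal per group (bars), for the 3 probe sets of Onecut2, the 2 of Isl1 and 3 of Lhx9, and the floor of 20.9 as a dotted line to which lower values were raised. Knockout arrays lie above wild type arrays on every Onecut2 probe set. The probe sets of Isl1 differ from each other, and those of Lhx9 differ with Shh.

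Dlx2, a factor of forebrain inhibitory neurons, passed only in the average over both conditions. It read 39.8, 38.2 and 15.6 in untreated wild type and 82.3, 97.9 and 81.7 in untreated knockout cultures. With Shh it read 13.1 and 18.2 in wild type, both below the floor, and 80.8 and 46.2 in knockout. The genotypes did not overlap in either condition. The fitted difference without Shh was 2.75-fold, with 1 wild type array at the floor (log2 1.46, adjusted p = 0.126). The knockout was at least 2.92-fold higher with Shh (adjusted p = 0.154), and the log2 difference over both conditions was 1.50 (SE 0.24, adjusted p = 0.0217). That call was lost with a floor at the 40th percentile (adjusted p = 0.0730), without both arrays with a high 18S signal (0.0742), and without any of replicates 2, 4, 6, 7, 8 and 9 (up to 0.114). Dlx1, its direct neighbour on chromosome 2, and Dlx5 and Dlx6, neighbours on chromosome 6, lay at or near the floor and did not pass.

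**Figure D3:**
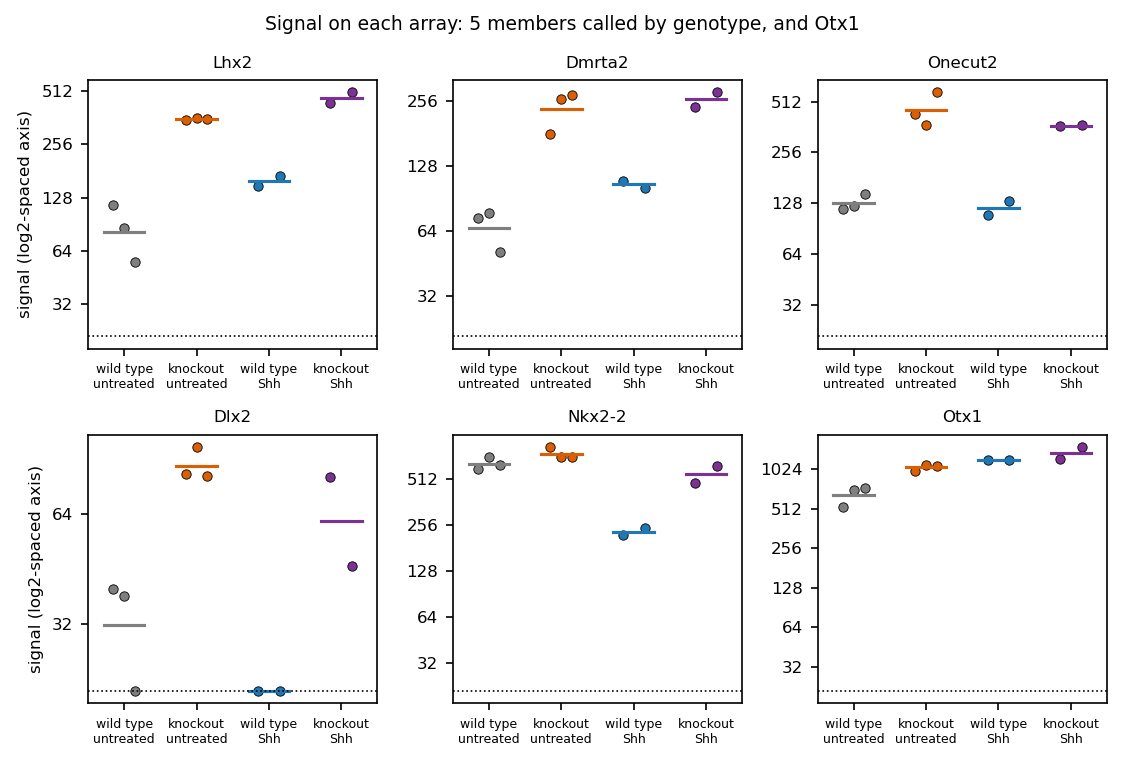
Signal on each array (points, log2-spaced axis), with the mean of log2 signal per group (bars) and the floor of 20.9 as a dotted line, for the 5 members that passed by genotype over both conditions and for Otx1. Knockout points lie above wild type points in both conditions for Lhx2, Dmrta2, Onecut2 and Dlx2, while those of Nkx2-2 overlap without Shh.

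Nkx2-2, a factor of the ventral neural tube that Shh induces in the embryo and that oligodendrocyte precursors carry, had another pattern. It read 593, 719 and 629 in untreated wild type and 831, 711 and 715 in untreated knockout cultures, which overlap (log2 0.22, adjusted p = 0.780). With Shh it read 219.8 and 245 in wild type against 483 and 625 in knockout. The wild type arrays with Shh stood below all 8 others. The knockout was 2.37-fold higher with Shh (1.85 to 3.02, log2 1.24, SE 0.16, adjusted p = 0.0123), a call lost with the Shh arrays alone in the fit (adjusted p = 0.164) or without replicate 9 or 10 (up to 0.0792). Over both conditions it was 1.66-fold higher (log2 0.73, adjusted p = 0.0102), a call lost without both arrays with a high 18S signal (0.0653) and without replicate 7 or 9 (up to 0.0549). It fell with Shh in wild type cultures (fold 0.360, 0.288 to 0.450, adjusted p = 0.000114), and in knockout cultures the fold was 0.733 (adjusted p = 0.0563). The difference between both Shh effects was a log2 of 1.03 (SE 0.20) and did not pass (adjusted p = 0.515).

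Some markers of the oligodendrocyte lineage moved with Nkx2-2, and others did not. The summed signal of 10 such markers, none at the floor on all arrays, was 34008 to 37657 in untreated wild type and 28556 to 36782 in untreated knockout cultures. With Shh it was 13172 to 13763 in wild type and 15356 to 19254 in knockout. Of these 10 markers, 3 passed as higher in knockout cultures with Shh, namely Olig1 (log2 0.94), Sox10 (1.28) and Cspg4 (1.15). In that comparison 7 read higher and 3 lower. In wild type cultures 8 fell with Shh and 1, Pdgfra, rose (log2 0.62). With Shh, Pdgfra also read lower in knockout (3584 and 3652) than in wild type cultures (4428.5 and 4255). Mbp, the brightest of the 10, overlapped there, at 4163 and 3956 in wild type and 3943 and 6082 in knockout. The part of these markers in the Nkx2-2 result was not tested.

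Of the remaining families, no member passed in a genotype comparison, apart from the alternatives given for Otx1 and from Six6 without replicate 2 (adjusted p = 0.0475 without Shh). The 4 Iroquois genes were well above the floor and stayed within a log2 of -0.23 to 0.28 between genotypes in both conditions. Otx1, a head and cerebellar patterning factor, read 532, 707 and 735 in untreated wild type and 988, 1110 and 1089 in untreated knockout cultures. These values do not overlap, yet the 1.63-fold difference did not pass (adjusted p = 0.0702). It passed with consecutive replicates as pairs (adjusted p = 0.0436), with no floor (0.0231) and with a pseudocount of 32 (0.0262). Otx2 read 1209, 1518 and 1204 against 1648, 1777 and 1531 without Shh, again without overlap (log2 0.34, adjusted p = 0.461). En2, which patterns the cerebellar primordium, was within a log2 of -0.12 to -0.10, and En1, its partner, read higher in untreated knockout cultures without passing (log2 0.64, adjusted p = 0.693). Gbx2, which sets the anterior hindbrain, lay below the floor in wild type cultures with Shh (4.46 and 19.3) and read 55.7 and 40.5 in knockout, at least 2.27-fold higher, which did not pass (adjusted p = 0.516).

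Six2, Six3 and Six6, which act in eye, forebrain and kidney development, and the Pax and GATA genes held several members near the floor. Without Shh their differences ran from -0.55 for Pax5 to 0.88 for Six6, and with Shh from -0.76 for Pax8 to 0.27 for Six2. Emx1 and Emx2, dorsal forebrain factors, differed by -0.50 to 0.20, and Tlx3, a selector of excitatory neurons in the dorsal spinal cord, by 0.11 and -0.10. None of these passed.

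Markers of other cell types also moved with genotype. The summed signal of 8 inhibitory interneuron markers was 15595 to 16118 in untreated wild type and 17025 to 19396 in untreated knockout cultures, and 10960.5 to 12397 against 16264 to 16614 with Shh. These sums did not overlap in either condition, but most of each was Reln alone. Reln read 9800 to 11602 in untreated wild type and 11140 to 12816 in untreated knockout cultures, which overlap. With Shh it read 8641 to 9508 against 12180 to 12707. Over both conditions 7 of the 8 markers read higher in the knockout and 1, Calb2, read lower. Of the 8, 3 passed over both conditions, all higher in the knockout (Gad2, Slc6a5 and Sst). The 10 microglia markers summed to 7402 to 10771 in untreated wild type and 6212 to 6924 in untreated knockout cultures, and to 4103 to 4430 against 2400 to 3365 with Shh. Over both conditions 2 of them passed, lower in the knockout. The 6 forebrain neuron markers, which include the member Emx1, summed to 717.5 to 941 against 729 to 848 without Shh and to 837 to 1183 against 1215 to 1365 with Shh. Over both conditions 4 of them read higher in the knockout and 2 lower, and 1, Bcl11b, passed as higher. None of these markers lay at the floor on all arrays, but 2 of the forebrain neuron markers lay there on many of them. The part of the markers of these cell types in the differences of Lhx2, Dmrta2, Onecut2 and Dlx2 was not tested.

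Further patterning factors outside the Hox clusters, counted in the same way, gave 7 of 90 that were higher over both conditions (7.78%, where 1.06% of all genes passed) and 0 that were lower. Foxa2, a factor of the floor plate and endoderm, read 18.0, 5.27 and 19.8 in untreated wild type and 211, 209 and 235 in untreated knockout cultures, at least 10.4-fold higher. With Shh it was at least 10.9-fold higher. Twist1, a factor of mesenchyme, was at least 5.30-fold higher without Shh and at least 2.16-fold with it, and Shox2, a limb and heart factor, at least 4.28-fold without Shh. Hand2, of the heart and sympathetic neurons, was at least 3.27-fold higher with Shh, and Tbx15 at least 3.85-fold. Tbx18 (log2 1.39, adjusted p = 0.0213) and Tfap2a, a neural crest factor (0.43, adjusted p = 0.0178), passed over both conditions only. Of the 90 factors, 3 passed in each single condition, all higher (3.33%, where 0.331% of all genes passed without Shh and 0.451% with it).

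The Shh comparison asked how the same factors responded to the mitogen. In wild type cultures 8 of 42 members passed, 2 higher and 6 lower, which is 19.0% where 23.6% of all genes passed. In knockout cultures 4 passed, all lower, which is 9.52% where 19.4% of all genes passed. The shares of members are thus not above those of all genes. The Shh arrays have a lower median signal, and the balance of higher and lower calls depended on scaling. With quantile normalisation, 49.1% of called genes were higher in wild type and 44.9% in knockout cultures. Members that passed then numbered 8 in wild type (3 higher, 5 lower) and 5 in knockout (1 higher, 4 lower). With array medians equalised, the median of all genes moved to a log2 of 0.26 in wild type and 0.21 in knockout cultures. Among called genes the share that was higher went from 42.1% to 80.1% in wild type and from 39.9% to 78.3% in knockout. Under that scaling 9 members passed in wild type (6 higher, 3 lower) and 6 in knockout (3 higher, 3 lower). Without wild type replicate 9, 4 members passed in wild type cultures.

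**Figure D4:**
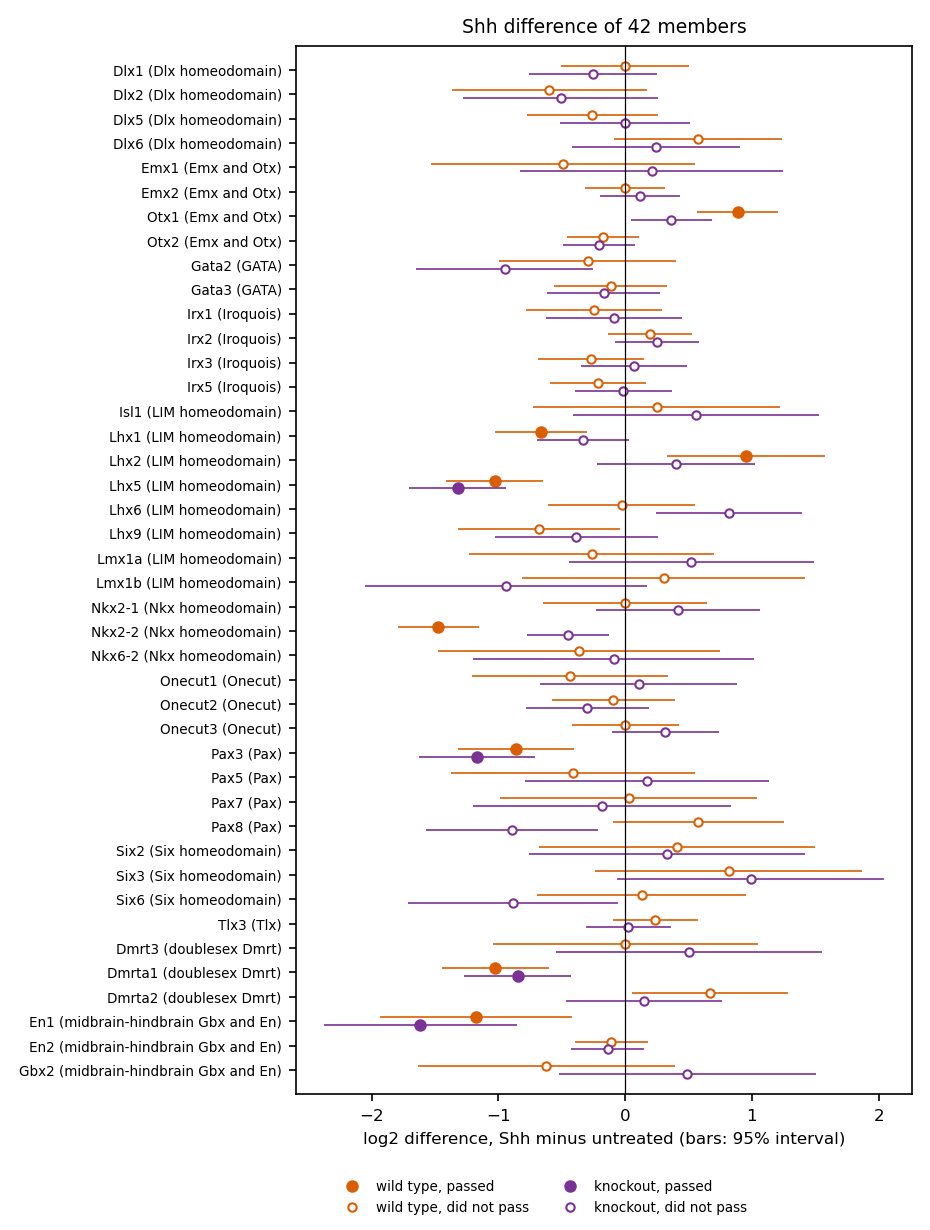
Log2 difference between Shh-treated and untreated cultures for each of the 42 tested members, in wild type (orange) and knockout (purple), with 95% intervals from limma and filled points for members that passed. Filled points lie left of 0 in both genotypes for Dmrta1, En1, Lhx5 and Pax3, and right of 0 in wild type for Lhx2 and Otx1.

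Among factors of the cerebellar primordium, the LIM genes Lhx1 and Lhx5, which Purkinje cells need to differentiate, fell with Shh. Lhx5 went from 583, 418 and 474 to 233 and 244 in wild type and from 382, 439 and 478 to 181 and 164 in knockout cultures. Treated and untreated arrays did not overlap. The fold was 0.490 in wild type (log2 -1.03, SE 0.17, adjusted p = 0.00219) and 0.400 in knockout (log2 -1.32, adjusted p = 0.000750). Both calls also held when medians were equalised, with -0.68 and -1.03. Lhx1 went from 3199, 3281 and 4390 to 2205 and 2324 in wild type (log2 -0.66, adjusted p = 0.0159) and from 2413, 2634 and 3279 to 1994 and 2399 in knockout cultures (log2 -0.33, adjusted p = 0.205). With equalised medians the wild type call was lost (log2 -0.32, adjusted p = 0.132), as it was without replicate 7 or 9.

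En1 went from 441, 378 and 346 to 241 and 122 in wild type and from 456, 653 and 739.9 to 265 and 147 in knockout cultures. All treated arrays lay below all untreated ones. The log2 difference was -1.18 in wild type (SE 0.34, adjusted p = 0.0321) and -1.62 in knockout (adjusted p = 0.00926). The wild type call was lost with equalised medians (-0.83, adjusted p = 0.0978), with quantile normalisation (0.0742), with limma's default prior (0.0526), without both arrays with a high 18S signal (0.0933) and without any of replicates 1, 3, 5 and 9, and the knockout call without replicate 10 (0.105). En2 did not pass, at 2593, 2669 and 2647 before and 2700.1 and 2210 after Shh in wild type, and 2135, 2565 and 2742 before and 2492 and 2019 after it in knockout cultures.

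Pax3, a factor of the dorsal neural tube and neural crest, fell as well. It went from 715, 884 and 565 to 397 and 382 in wild type (log2 -0.86, SE 0.20, adjusted p = 0.0134) and from 735, 720.4 and 569.5 to 348 and 256 in knockout cultures (log2 -1.17, adjusted p = 0.00367). Treated arrays lay below untreated ones in both genotypes. The wild type call was lost with equalised medians (log2 -0.52, adjusted p = 0.0917) and without replicate 7 or 9, and the knockout call without replicate 10 (adjusted p = 0.0504). Dmrta1 went from the untreated values above to 203 and 195 in wild type (fold 0.491, adjusted p = 0.00386) and to 245 and 229 in knockout cultures (fold 0.556, adjusted p = 0.0121). Its wild type call held with equalised medians (log2 -0.68, adjusted p = 0.0240) and its knockout call did not (log2 -0.56, adjusted p = 0.0603), nor did the latter hold without replicate 8 or 10.

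Otx1 rose with Shh in wild type cultures, to 1209 and 1201 (fold 1.85, 1.48 to 2.31, log2 0.89, SE 0.14, adjusted p = 0.00194). In knockout cultures it read 1230.1 and 1517 with Shh, above the untreated arrays, and did not pass (fold 1.29, adjusted p = 0.114), though it did with equalised medians (log2 0.66, adjusted p = 0.00606). The Shh arrays of wild type lay above all untreated arrays of both genotypes. Equalised medians also brought calls that were higher with Shh for Dmrta2, Irx2, Pax8 and Tlx3 in wild type, and for Irx2 and Lhx6 in knockout cultures. Other alternatives brought calls in both directions. Higher calls came for Dmrta2 in wild type and for Lhx6 and Otx1 in knockout cultures. Lower calls came in knockout cultures for Gata2, Lhx9, Nkx2-2, Pax8 and Six6.

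**Figure D5:**
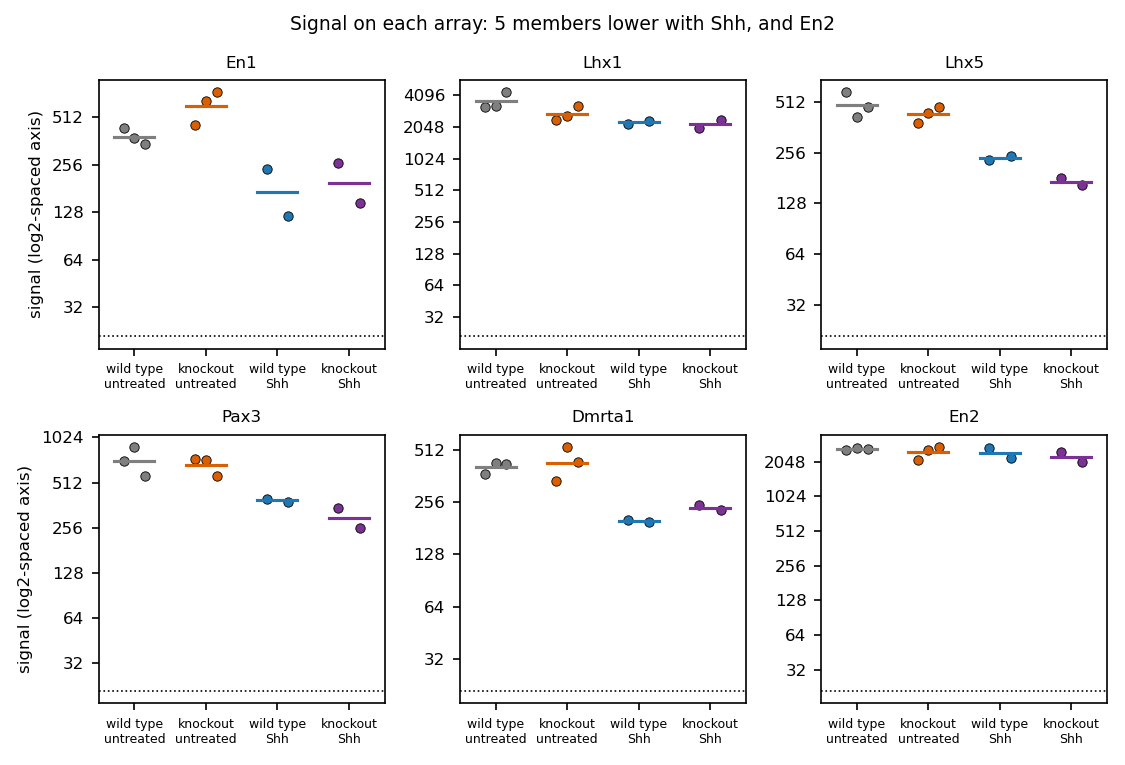
Signal on each array (points, log2-spaced axis), with the mean of log2 signal per group (bars) and the floor of 20.9 as a dotted line, for the members En1, Lhx1, Lhx5, Pax3 and Dmrta1, which fell with Shh in at least 1 genotype, and for En2. Shh arrays lie below the untreated arrays of their genotype in every panel but that of En2.

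Markers of several cell types other than the granule lineage fell over the same comparison. All 6 Purkinje cell markers on the array were lower with Shh in both genotypes (median log2 -2.35 and -2.30), and their summed signal went from 21172 to 36099 in untreated wild type to 6741 to 7131 with Shh, and from 25398 to 46280 to 6932 to 8945 in knockout cultures. Of 10 astrocyte and Bergmann glia markers 8 were lower in each genotype, with summed signals of 47820 to 60779 before and 21347 to 23296 after Shh in wild type, and 51265 to 53307 before and 25808 to 28085 after it in knockout cultures. Of 8 inhibitory interneuron markers 5 were lower in each genotype. Of 10 markers of meninges and fibroblasts 6 were lower in each genotype, with summed signals of 2223 to 2990 and 2455 to 3152 before and 917 to 962 and 899 to 955 after Shh. Of 9 granule lineage markers, 1 was higher (Atoh1) and 1 lower (Gabra6) in wild type cultures. Not every marker list fell. In knockout cultures 1 astrocyte and Bergmann glia marker, 1 marker of meninges and fibroblasts and 2 forebrain neuron markers were higher with Shh. The 6 forebrain neuron markers summed to 729 to 848 before and 1215 to 1365 after Shh in knockout cultures. No choroid plexus marker passed in either genotype. The part of any of these cell types in the falls of Lhx1, Lhx5, En1, Pax3 and Dmrta1 was not tested.

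The interaction asked whether the genotype difference changed with Shh. None of the 42 members passed, and 0.0% of all 17515 genes did. Without wild type replicate 7, which left 1 array in its group, 55 genes passed (4 higher, 51 lower), and no member among them. At an unadjusted p under 0.05, limma gave 4 members and 848 genes. The members' interaction values ran from -1.47 for Pax8 to 1.11 for Gbx2, with a median of 0.10 against 0.00 for all genes.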

How the data were processed

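RNA from each culture went on 1 of 10 Affymetrix arrays of the Mouse Genome 430 2.0 design. The deposited values are linear signal intensity that the authors computed by MAS5 (GCOS 1.2, per the submitters' processing notes). Each array had a 2% trimmed mean of 500, so the values were used as deposited. Of 45101 probe sets, 64 controls were left out, 34945 carried 1 gene symbol, 932 several and 9160 none. Entrez identifiers matched 34741 of the first kind to RefSeq (GRCm38.p6), and 0 symbols changed.

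Signals were raised to a floor at the 25th percentile (20.9) and log2 was taken. The probe set of highest mean stood for its gene, and 678 genes at the floor on all arrays were not tested. One mean per group was fitted over all 10 arrays with limma 3.58.1 in R 4.3.3 (lmFit, eBayes with an intensity trend, 6 residual and 3.62 prior degrees of freedom). Tests were two-sided, with Benjamini-Hochberg adjustment over the genes of a comparison. The fit was tested on simulated data. Folds against a group at the floor are lower bounds. The number of arrays limits the precision.

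Members and lists were chosen with earlier results of these data known. Values on every array are given for members that passed in any comparison or had a log2 genotype difference of 1 or more in either condition, other members are given by family, and further patterning factors are named where they passed by genotype. Lhx9, Isl1 and the markers named were chosen after their values were seen. Replicate numbers are unique. Arrays with neighbouring numbers, 1 of each genotype, had correlated deviations from their group means (0.120 to 0.278 in 3 untreated pairs, -0.265 to 0.0529 in other pairings, 0.160 with Shh), so they were taken as pairs, from the data alone. Alternatives covered the floor, a filter, scaling, the prior, averaged probe sets, the pairs, and leaving out arrays.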

Additional observations from a re-analysis of the deposited data

Results flagged for a closer look

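Pax8, a paired-box factor of the midbrain-hindbrain boundary and the thyroid, had opposite genotype differences in the 2 conditions, with no overlap in either. It read 19.1, 31.2 and 30.9 in untreated wild type and 59.7, 45.2 and 33.1 in untreated knockout cultures, and 36.3 and 45.3 against 16.9 and 27.6 with Shh. Its Shh differences were likewise opposite between genotypes, higher in wild type and lower in knockout cultures. Both patterns are the same quantity, a log2 interaction of -1.47, which did not pass in limma (adjusted p = 0.810). All values lay near the floor of 20.9, and on the other Pax8 probe set the genotypes overlapped in both conditions, at 4.02 and 23.2 against 3.06 and 17.4 with Shh.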

How the results depend on the processing

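For the 27 named differences, 558 values under alternatives gave 497 on the same side of the threshold, 56 that no longer passed and 5 that newly passed, and 0 changed direction. Leaving out 1 array at a time gave 2 to 4 members called by genotype without Shh (3 with all arrays), 0 to 3 with Shh (2), 3 to 5 over both conditions (5), 4 to 8 by Shh in wild type (8), 3 to 5 in knockout (4) and 0 by the interaction. With 1 array left in a group, it was assumed to vary like the other groups. Without both arrays with a high 18S signal, 1 member passed without Shh and 3 over both conditions. With only the arrays compared in the fit, 0 passed with Shh. With consecutive replicates as a replicate block, 3 members were called by genotype without Shh, 2 with Shh, 5 over both conditions and 0 by the interaction. No pair held both a treated and an untreated array, so the Shh comparisons could not be adjusted within pairs. They were fitted with a correlation of 0.289 within pairs instead, which gave 8 members in wild type and 4 in knockout. The block ended the call of Dmrta2 without Shh (adjusted p = 0.0649), brought that of Otx1 (0.0436) and changed no other call of a member.

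Over all genes, 58 passed by genotype without Shh, against 91 with no floor, 34 with only the arrays compared and 25 without both arrays with a high 18S signal. With Shh 79 passed, against 16 and 35 under the last 2 settings, and over both conditions 185, against 73 without those arrays. By Shh, 4133 passed in wild type and 3392 in knockout, against 6601 and 5620 with array medians equalised. Leaving out 1 array gave 31 to 71 genes without Shh, 15 to 222 with Shh, 62 to 218 over both conditions and 0 to 55 by the interaction, with the highest of the last 3 ranges without replicate 7. With genes below the median left out and the default prior, 1 gene passed the interaction, no member. Signals near the floor limit the 22 members above it on 1 to 9 arrays, and no detection calls were used.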

Other observations

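Several patterning factors outside the members fell with Shh in both genotypes. Ptf1a, which commits cerebellar progenitors to inhibitory fates, read 536, 704 and 551 in untreated wild type and 148 and 182 with Shh, and 576, 623 and 455 against 201 and 141 in knockout cultures (log2 -1.85 and -1.70, adjusted p = 0.000285 and 0.000665). Neurog1, a proneural factor, changed by -2.66 and -2.58, and Lbx1, a factor of dorsal spinal interneurons, by -0.70 and -0.62, and all 4 of these differences passed in limma. Of the 90 such factors tested, 1 rose and 9 fell in wild type (11.1%, where 23.6% of all genes passed), and 2 rose and 10 fell in knockout cultures (13.3%, where 19.4% did), so the shares are not above those of all genes. In the knockout Hand2 rose (log2 1.48) and Twist1 fell (-1.30). Both comparisons share no arrays, and markers of inhibitory interneurons and Purkinje cells fell over each of them, whose part in these values was not tested. Ptf1a, Neurog1 and Lbx1 were chosen after their values were seen.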
